A study of Mus musculus with 14 samples.

Results

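Collagens are the main structural proteins of the extracellular matrix, and the genes that encode their chains were followed here in the mammary glands of ovariectomized mice. Members were all genes whose probe sets carried a single symbol of the form Col, number, a, number. These came to 42 of the 18193 genes named by probe sets with 1 symbol, and 1 probe set stood for each gene, that of highest mean level over the 14 arrays. These 42 genes held 82 probe sets, 15 genes having 1 and 27 having several, so 40 further probe sets were available to set beside the chosen ones. Col6a6 and Col28a1 were not analysed here.

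The animals were female C57BL6 mice, 11 to 12 weeks old on arrival and ovariectomized 7 days before treatment, in groups of 8. Every group, controls included, was therefore without ovaries, and glands were taken 3 h after treatment. The vehicle, E2 (17β-estradiol, the main ovarian estrogen), acolbifene and E2+acolbifene groups had 2 arrays each. Fulvestrant, E2+fulvestrant, raloxifene, E2+raloxifene, tamoxifen and E2+tamoxifen had 1 array each. Acolbifene (EM-652.HCl), tamoxifen (given as its citrate) and raloxifene bind the estrogen receptor and modulate it, and fulvestrant is a pure antiestrogen that leads to receptor breakdown. The sources used here state no dose for the blockers, so values of different compounds are set side by side without comparison. The glands of a group were combined into a pool, and the labels do not say whether its 2 arrays are from different pools. The p-values therefore measure no more than the spread between arrays, and that spread may be technical.

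A collagen molecule consists of chains wound around each other in a helix, which are modified and folded in the endoplasmic reticulum, secreted, trimmed and cross-linked. Fibrillar collagens such as types I, III and V assemble into the fibrils of the stroma, network-forming type IV builds basement membranes, type VI forms beaded filaments around cells, and fibril-associated collagens (FACITs) such as types XII and XIV decorate the fibril surface. In the mammary gland, stromal fibroblasts and adipocytes make most fibrillar and type VI collagen, and the epithelial ducts rest on a type IV basement membrane. In pooled tissue, fewer cells of a type and less RNA per cell cannot be told apart.

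Levels are log2 values deposited by the authors, so a difference of 1 is a doubling of the signal. Array medians lay between 7.16 and 7.23. The 2 arrays of a group differed by more than 1.5-fold at 111 probe sets for vehicle, 310 for E2, 153 for acolbifene and 75 for E2+acolbifene. All 12 markers of fibroblasts, all 12 of mammary epithelium and the 10 measured markers of adipocytes were above the dim level, which is the 40 percentile of mean level over all probe sets (6.65). The raw-file codes of the labels fell into a set of 7 arrays (E2 array 1 and the 6 groups with 1 array) and a set of 7 holding all others.

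The start regions of 4 collagen genes are shown first because these genes differ in how they moved in the results that follow. Col1a2 and Col6a3 were called lower on E2+acolbifene than on acolbifene arrays, Col10a1 was called higher in the same comparison, and Col3a1 was a bright fibrillar gene that was not called. Each sequence is the 250 bases before the transcript start in RefSeq, mouse build GRCm38.p6, written 5′ to 3′ on the gene's strand, with 3 motifs in capitals on either strand, GGGCGG (the GC box), the sequence CCAAT, and TATAAA. Col1a2 (chr6:4505368-4505617, plus strand) held 2 GC boxes and 1 CCAAT.
Col1a2: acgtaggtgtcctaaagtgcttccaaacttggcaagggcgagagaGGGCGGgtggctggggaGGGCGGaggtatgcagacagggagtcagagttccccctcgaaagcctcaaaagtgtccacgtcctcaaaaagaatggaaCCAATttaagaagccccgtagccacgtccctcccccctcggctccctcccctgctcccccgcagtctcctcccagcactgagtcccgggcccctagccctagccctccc
Col6a3 (chr1:90843972-90844221, minus strand) held none of these motifs.
Col6a3: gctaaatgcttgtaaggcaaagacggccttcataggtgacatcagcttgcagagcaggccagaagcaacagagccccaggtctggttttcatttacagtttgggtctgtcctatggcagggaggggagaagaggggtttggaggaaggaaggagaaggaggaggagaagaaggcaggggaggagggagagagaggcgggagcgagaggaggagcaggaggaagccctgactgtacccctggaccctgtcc
Col3a1 (chr1:45311288-45311537, plus strand) held 1 TATAAA.
Col3a1: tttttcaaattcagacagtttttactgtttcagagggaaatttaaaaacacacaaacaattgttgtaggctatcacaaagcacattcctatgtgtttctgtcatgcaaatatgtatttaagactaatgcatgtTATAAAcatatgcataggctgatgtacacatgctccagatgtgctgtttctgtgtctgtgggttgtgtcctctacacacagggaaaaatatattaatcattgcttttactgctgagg
Col10a1 (chr10:34389731-34389980, plus strand) also held 1 TATAAA.
Col10a1: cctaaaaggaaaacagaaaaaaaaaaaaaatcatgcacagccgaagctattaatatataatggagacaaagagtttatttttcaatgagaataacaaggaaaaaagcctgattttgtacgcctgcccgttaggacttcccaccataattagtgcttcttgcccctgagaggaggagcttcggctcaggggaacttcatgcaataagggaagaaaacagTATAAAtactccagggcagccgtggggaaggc

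RefSeq windows of this kind were matched for 33 of the 42 collagen genes and for 27025 genes in all, and 6 motifs were searched on both strands. A full estrogen response element (GGTCA, then any 3 bases, then TGACC) was in 0 of the 33 collagen windows and in 0.0666% of all genes. Its half-site GGTCA, which the full element also contains, was in 14 of the 33 against 38.4% of all genes. The AP-1 site TGACTCA was in 1, that of Col6a1, against 5.16%. The GC box was in 20 of the 33 against 35.4%, CCAAT in 13 against 37.5%, and TATAAA in 5 (Col3a1, Col10a1, Col11a2, Col13a1 and Col17a1) against 14.3%. These matches describe letters in a window and no binding. In the same annotation, 7 pairs of collagen genes had no protein-coding gene between them, namely Col3a1 and Col5a2, Col4a1 and Col4a2, Col4a3 and Col4a4, Col4a5 and Col4a6, Col6a1 and Col6a2, Col6a4 and Col6a5, and Col9a1 and Col19a1.

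By structural class, 11 fibrillar, 9 network-forming, 9 FACIT, 5 type VI, 4 transmembrane and 2 multiplexin genes were measured, with Col7a1 (the anchoring fibril of skin and epithelia) and Col26a1. Of the 42, 32 were above the dim level. The 10 dim genes were Col11a1, Col11a2 and Col24a1 among the fibrillar genes, Col8a2, the FACITs Col9a2, Col19a1 and Col22a1, and Col6a5, Col13a1 and Col26a1. A mean level of 11 or more was found for 13 genes, called bright here with a limit chosen after the values were seen. These were Col1a1, Col1a2, Col3a1, Col5a1, Col5a2, Col5a3, Col4a1, Col4a2, Col6a1, Col6a2, Col6a3, Col14a1 and Col15a1. Signals of different probe sets are not ranked against each other, since probes differ in efficiency.

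**Figure D1:**
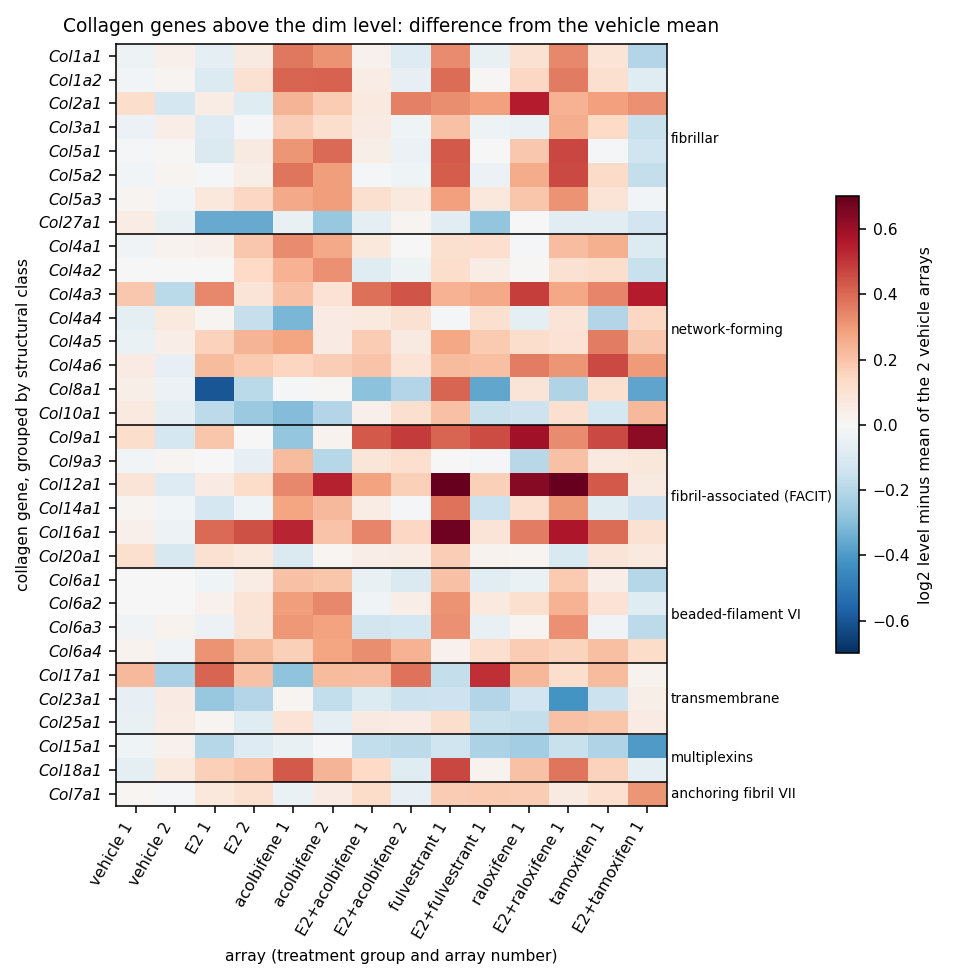
Log2 level minus the mean of the 2 vehicle arrays for the 32 collagen genes above the dim level (rows, by structural class) on the 14 arrays (columns); the colour scale ends at 0.7 in either direction and larger differences have the end colour. The columns of acolbifene 1, acolbifene 2, fulvestrant and E2+raloxifene are red for most fibrillar and type VI genes, and the E2+tamoxifen column is blue for them.

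E2 alone was compared with vehicle to see whether 3 h of estrogen moved collagen transcripts. No collagen gene passed the threshold (limma, adjusted p under 0.05 over 45037 probe sets), where 3.74% of all probe sets did. At an unadjusted p under 0.05, 8 of 42 passed, 3 higher and 5 lower with E2, against 19.7% of all probe sets. None of the 13 bright genes was among these 8, and the bright genes had a median log2 change of 0.01, from -0.15 (Col15a1) to 0.11 (Col4a1). Col1a1 differed by less than 0.01, with a 95% interval of -0.20 to 0.20. The arrays of E2 lay above both vehicle arrays for 11 of 42 genes (22.0% of all probe sets) and below both for 8 (30.1%).

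The largest differences with E2 among genes above the dim level were in minor collagens. Col16a1, a FACIT found with fibrils of skin and stroma, had a log2 change of 0.42 (SE 0.12, adjusted p = 0.072 by limma), Col17a1, a transmembrane collagen of hemidesmosomes, 0.31 (SE 0.17), and Col6a4 0.27 (SE 0.09). On the other side stood Col8a1, a short-chain collagen of vessels and stroma, at -0.39 (SE 0.12, adjusted p = 0.10), Col27a1, a fibrillar collagen known from cartilage, at -0.35 (SE 0.10, adjusted p = 0.071), and Col23a1, a transmembrane collagen, at -0.23 (SE 0.10). None of these 6 passed the test. Col16a1 and Col27a1 passed when dim probe sets were removed before the fit (adjusted p = 0.047 and 0.042). The other probe set of Col27a1 (1429549_at) differed by -0.05, and the other probe sets of Col8a1 by -0.32 and -0.01. Dim probe sets of Col6a4 (1445470_at) and Col23a1 (1440911_at) had the opposite sign, at -0.02 and 0.33.

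The levels behind these values show how close the arrays lay. Col16a1 read 8.38 and 8.31 with vehicle, 8.74 and 8.79 with E2, 8.88 and 8.54 with acolbifene, and 8.69 and 8.49 with E2+acolbifene. Its remaining arrays read 9.02 with fulvestrant, 8.43 with E2+fulvestrant, 8.70 with raloxifene, 8.91 with E2+raloxifene, 8.74 with tamoxifen and 8.45 with E2+tamoxifen. Both vehicle arrays were below all 12 other arrays for Col16a1.

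For Col27a1 the levels were 9.04 and 8.94 with vehicle, 8.64 and 8.63 with E2, 8.94 and 8.72 with acolbifene, and 8.92 and 9.004 with E2+acolbifene. The arrays without a replicate gave 8.91 with fulvestrant, 8.71 with E2+fulvestrant, 8.99 with raloxifene, 8.92 with E2+raloxifene, 8.91 with tamoxifen and 8.85 with E2+tamoxifen. The E2 arrays were the 2 lowest of the 14, and E2+fulvestrant came next.

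Col8a1 read 8.45 and 8.36 with vehicle, 7.81 and 8.22 with E2, 8.40 and 8.41 with acolbifene, and 8.12 and 8.20 with E2+acolbifene. The other arrays gave 8.81 with fulvestrant, 8.04 with E2+fulvestrant, 8.50 with raloxifene, 8.19 with E2+raloxifene, 8.52 with tamoxifen and 8.04 with E2+tamoxifen. The 2 E2 arrays were 0.41 apart, more than the group means of E2 and vehicle, and E2 array 1 was the lowest of all 14.

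Col17a1 read 6.88 and 6.43 with vehicle, 7.06 and 6.86 with E2, 6.37 and 6.88 with acolbifene, and 6.87 and 7.03 with E2+acolbifene. Single arrays read 6.48 with fulvestrant, 7.16 with E2+fulvestrant, 6.89 with raloxifene, 6.78 with E2+raloxifene, 6.87 with tamoxifen and 6.68 with E2+tamoxifen. The acolbifene arrays were 0.50 apart for this gene, and the vehicle and acolbifene arrays overlapped.

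Levels of Col6a4 were 7.20 and 7.15 with vehicle, 7.49 and 7.39 with E2, 7.34 and 7.45 with acolbifene, and 7.50 and 7.42 with E2+acolbifene, followed by 7.21 with fulvestrant, 7.29 with E2+fulvestrant, 7.35 with raloxifene, 7.33 with E2+raloxifene, 7.39 with tamoxifen and 7.30 with E2+tamoxifen. Vehicle array 2 was the lowest of the 14, and both E2 arrays were above both vehicle arrays.

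Col23a1 gave 7.75 and 7.86 with vehicle, 7.54 and 7.60 with E2, 7.82 and 7.63 with acolbifene, and 7.71 and 7.65 with E2+acolbifene. The arrays without a replicate read 7.66 with fulvestrant, 7.60 with E2+fulvestrant, 7.67 with raloxifene, 7.39 with E2+raloxifene, 7.65 with tamoxifen and 7.84 with E2+tamoxifen. Both E2 arrays were below both vehicle arrays, and the lowest was the E2+raloxifene array.

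Acolbifene alone was compared with vehicle to see what a receptor modulator did in the absence of estrogen. Most bright collagen genes had higher levels on the acolbifene arrays, by up to 1.33-fold, but none of the 42 genes passed the threshold, where 0.597% of all probe sets did. At an unadjusted limma p under 0.05, 19 of 42 passed, 16 higher and 3 lower with acolbifene, against 16.0% of all probe sets. The bright genes made up 11 of these 19, and 26.4% of all probe sets with a mean level of 11 or more passed in the same way. Acolbifene arrays did not overlap vehicle arrays and were higher for 12 of the 13 bright genes, against 51.0% of the 1948 equally bright probe sets. Over all 42 genes they were higher for 21 (26.8% of all probe sets) and lower for 5 (20.0%).

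The median log2 change of the bright collagen genes was 0.29 with acolbifene, and that of all equally bright probe sets was 0.07. Quantile normalization of the deposited values again left these medians at 0.26 and 0.02. Col1a2, a chain of type I collagen, had a log2 change of 0.41 (SE 0.10, 95% interval 0.20 to 0.62, adjusted p = 0.082 by limma), a fold of 1.33. Col1a1, the other type I chain, had 0.34 (SE 0.09, adjusted p = 0.12), Col5a1 0.35 (SE 0.09, adjusted p = 0.11) and Col5a2 0.33 (SE 0.08, adjusted p = 0.10), the latter pair being chains of type V collagen, which nucleates type I fibrils. The type VI chains Col6a1, Col6a2 and Col6a3 had 0.20, 0.32 and 0.29, and the basement membrane chains Col4a1 and Col4a2 had 0.30 and 0.28. Col3a1 had 0.15 at the chosen probe set and 0.39 (adjusted p = 0.086) at the other (1427884_at). The exception among the bright genes was Col15a1, a multiplexin of basement membrane zones, at -0.03.

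Classes differed in their medians for acolbifene against vehicle. These were 0.28 for the 11 fibrillar genes, 0.22 for the 5 type VI genes, 0.15 for the 9 network-forming genes, 0.15 for the 2 multiplexins, -0.04 for the 9 FACITs and -0.05 for the 4 transmembrane genes. Differences between the classes were not tested. The FACIT median hid a wide range, from Col12a1 at 0.44 (SE 0.10, adjusted p = 0.083) and Col16a1 at 0.37 to Col19a1, a dim gene, at -0.27. The largest differences below 0 among genes above the dim level were Col10a1 at -0.25 (SE 0.09, adjusted p = 0.22), Col27a1 at -0.16 and Col4a4 at -0.13. The other probe set of Col27a1 had the opposite sign (0.15).

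Col4a4, a chain of the specialised basement membrane of the kidney, shows how little the smaller differences rest on. It read 6.96 and 7.10 with vehicle, 7.05 and 6.86 with E2, 6.71 and 7.09 with acolbifene, and 7.09 and 7.13 with E2+acolbifene, and then 7.02 with fulvestrant, 7.14 with E2+fulvestrant, 6.96 with raloxifene, 7.12 with E2+raloxifene, 6.82 with tamoxifen and 7.17 with E2+tamoxifen. The acolbifene arrays were 0.38 apart, lying on either side of vehicle array 1. Without acolbifene array 1 the difference had the opposite sign (0.059).

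E2+acolbifene was compared with acolbifene, which asks what E2 did to glands that received the modulator. Of the 42 collagen genes 9 passed the threshold, 2 higher and 7 lower with E2+acolbifene, against 9.20% of all probe sets in either direction. The genes that fell were the type I chains Col1a1 and Col1a2, the type V chains Col5a1 and Col5a2, the type VI chains Col6a2 and Col6a3, and the basement membrane chain Col4a2. The genes that rose were the FACIT Col9a1 and the network-forming Col10a1. Among all probe sets, 5.67% were called lower and 3.52% higher. At an unadjusted p under 0.05, 17 of 42 genes passed, 14 of them lower (30.2% of all probe sets).

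These falls moved with a wider shift of bright probe sets. The 7 genes that fell were all bright, and 17.2% of all probe sets with a mean level of 11 or more were called lower. All 13 bright collagen genes were lower without overlap of the arrays, as were 75.8% of equally bright probe sets. The median log2 change was -0.31 over the bright collagen genes and -0.20 over all equally bright probe sets. After quantile normalization was applied again, those medians were -0.13 and -0.02, and Col9a1 was the only collagen gene that passed (0.67, adjusted p = 0.033). Fewer collagen genes passed whenever any 1 of the 8 arrays was left out, most of all for arrays of the groups compared. Such fits leave 1 array in a group, and the share of all probe sets they called is not set beside them.

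**Figure D2:**
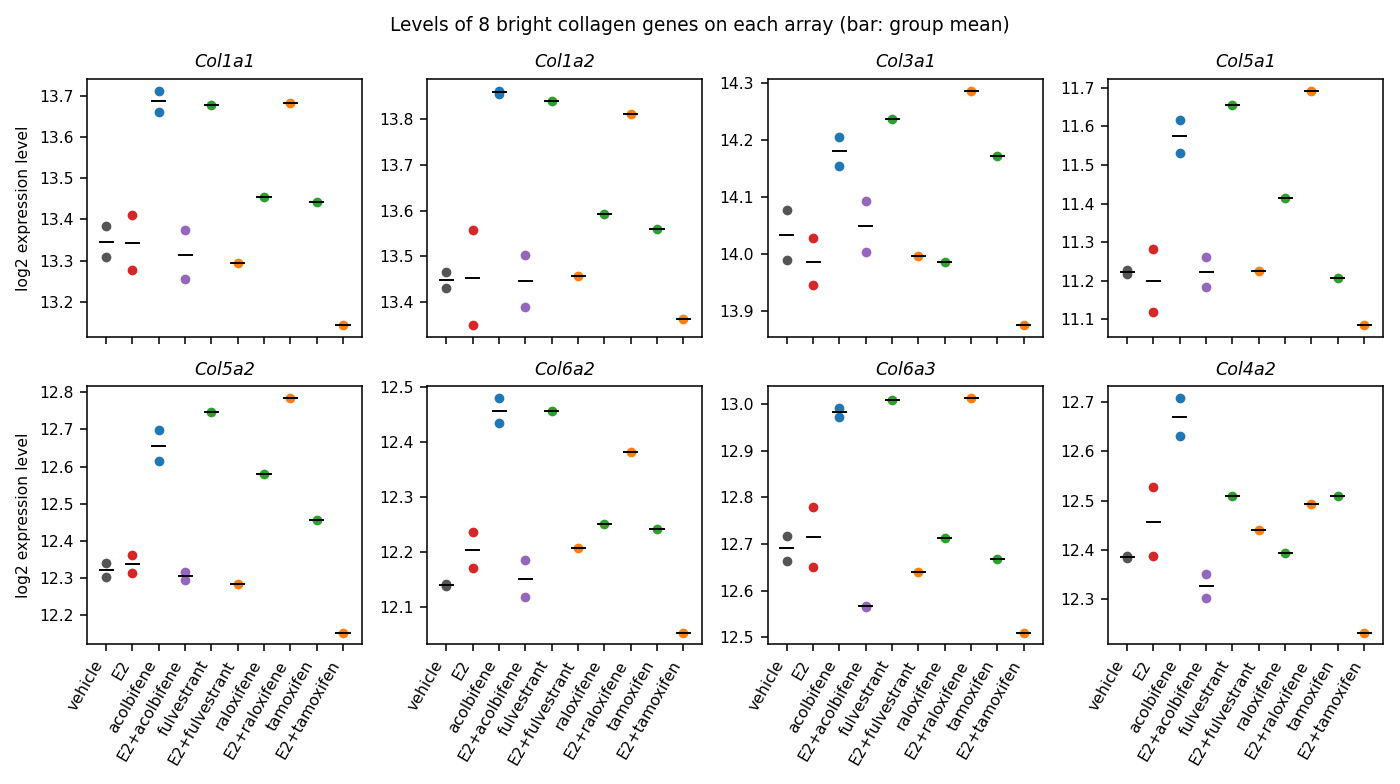
Log2 levels of 8 bright collagen genes (panels) on each array by treatment group; points are arrays, bars are group means, and each panel has its own axis, which does not start at 0. In the panels of Col1a1, Col1a2, Col5a1, Col5a2, Col6a2 and Col6a3 the acolbifene, fulvestrant and E2+raloxifene points are the 4 highest.

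Col1a2 illustrates the type I chains. It read 13.43 and 13.47 with vehicle, 13.35 and 13.56 with E2, 13.85 and 13.86 with acolbifene, and 13.50 and 13.39 with E2+acolbifene. The other arrays read 13.84 with fulvestrant, 13.46 with E2+fulvestrant, 13.59 with raloxifene, 13.81 with E2+raloxifene, 13.56 with tamoxifen and 13.36 with E2+tamoxifen. The 2 acolbifene arrays were the highest of the 14, the fulvestrant and E2+raloxifene arrays came next, and the E2+acolbifene and vehicle arrays overlapped. The change from acolbifene to E2+acolbifene was -0.41 (SE 0.10, 95% interval -0.62 to -0.20, adjusted p = 0.032 by limma). Probe set 1423110_at gave -0.37 (adjusted p = 0.030), and 1446326_at, which was dim, gave 0.04.

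Col1a1 read 13.31 and 13.38 with vehicle, 13.28 and 13.41 with E2, 13.71 and 13.66 with acolbifene, and 13.38 and 13.25 with E2+acolbifene. On single arrays it read 13.68 with fulvestrant, 13.29 with E2+fulvestrant, 13.46 with raloxifene, 13.68 with E2+raloxifene, 13.44 with tamoxifen and 13.14 with E2+tamoxifen. At this chosen probe set the same 4 arrays were the highest, and E2+tamoxifen was the lowest of the 14. Col1a1 fell by 0.37 on the log2 scale from acolbifene to E2+acolbifene (SE 0.09, adjusted p = 0.037 by limma). Its other probe set (1455494_at) gave -0.09 (adjusted p = 0.60), so the 2 probe sets of Col1a1 differed in call. They also differed in the order of the arrays. At 1455494_at the fulvestrant array was the lowest of the 14 (11.23) and acolbifene array 2 the highest (11.59). Acolbifene array 1 read 11.33 there, E2+raloxifene 11.40 and E2+tamoxifen 11.33.

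Col5a1, whose chain sets the diameter of type I fibrils, read 11.22 and 11.23 with vehicle, 11.12 and 11.28 with E2, 11.53 and 11.62 with acolbifene, and 11.26 and 11.18 with E2+acolbifene. Further values were 11.65 with fulvestrant, 11.23 with E2+fulvestrant, 11.41 with raloxifene, 11.69 with E2+raloxifene, 11.21 with tamoxifen and 11.09 with E2+tamoxifen. Both acolbifene arrays stood above all vehicle, E2 and E2+acolbifene arrays. Between acolbifene and E2+acolbifene the log2 change was -0.35 (SE 0.09, adjusted p = 0.041 by limma), and it was -0.43 and -0.38 at the other probe sets (1416741_at and 1434479_at), both called.

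The partner chain Col5a2 gave 12.30 and 12.34 with vehicle, 12.31 and 12.36 with E2, 12.70 and 12.61 with acolbifene, and 12.31 and 12.29 with E2+acolbifene. Arrays of the other compounds gave 12.75 with fulvestrant, 12.28 with E2+fulvestrant, 12.58 with raloxifene, 12.78 with E2+raloxifene, 12.46 with tamoxifen and 12.15 with E2+tamoxifen. Vehicle, E2, E2+acolbifene and E2+fulvestrant arrays lay between 12.28 and 12.36, the acolbifene arrays at 12.61 and above, and E2+tamoxifen below all others. Col5a2 fell by 0.35 (SE 0.08, adjusted p = 0.035 by limma), and its second probe set (1450625_at) gave -0.27 (adjusted p = 0.090).

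Col3a1, the chain of type III collagen, which forms fine fibrils with type I, read 13.99 and 14.08 with vehicle, 13.95 and 14.03 with E2, 14.21 and 14.15 with acolbifene, and 14.09 and 14.004 with E2+acolbifene. The remaining levels were 14.24 with fulvestrant, 13.996 with E2+fulvestrant, 13.99 with raloxifene, 14.29 with E2+raloxifene, 14.17 with tamoxifen and 13.88 with E2+tamoxifen. The E2+acolbifene and vehicle arrays overlapped, and all 14 arrays lay between 13.88 and 14.29. The log2 change from acolbifene to E2+acolbifene was -0.13 (SE 0.09, adjusted p = 0.34 by limma) at this probe set and -0.32 (adjusted p = 0.051) at the other (1427884_at). Col5a3, another type V chain, had a change of -0.19 (adjusted p = 0.15 by limma) and ranged from 11.63 to 11.96 on the 14 arrays.

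Other fibrillar genes gave no such pattern. Col2a1, the main collagen of cartilage, lay between 7.34 (vehicle 2) and 8.01 (raloxifene). Cartilage and tendon markers were dim for 9 of 12 genes. Col11a1, Col11a2 and Col24a1 were dim by their means over the 14 arrays, and Col11a2 read up to 6.84 (vehicle 1).

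In type VI collagen, Col6a3, its largest chain, read 12.66 and 12.72 with vehicle, 12.65 and 12.78 with E2, 12.99 and 12.97 with acolbifene, and 12.56 and 12.57 with E2+acolbifene. Single arrays gave 13.01 with fulvestrant, 12.64 with E2+fulvestrant, 12.71 with raloxifene, 13.01 with E2+raloxifene, 12.67 with tamoxifen and 12.51 with E2+tamoxifen. The E2+acolbifene arrays lay below both vehicle arrays, and only E2+tamoxifen was lower. Col6a3 fell by 0.42 on the log2 scale from acolbifene to E2+acolbifene (SE 0.09, 95% interval -0.61 to -0.23, adjusted p = 0.025 by limma).

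Col6a2 gave 12.14 and 12.14 with vehicle, 12.17 and 12.24 with E2, 12.43 and 12.48 with acolbifene, and 12.12 and 12.19 with E2+acolbifene. Its other levels were 12.46 with fulvestrant, 12.21 with E2+fulvestrant, 12.25 with raloxifene, 12.38 with E2+raloxifene, 12.24 with tamoxifen and 12.05 with E2+tamoxifen. The acolbifene and fulvestrant arrays were the 3 highest, and E2+tamoxifen the lowest. Its change was -0.31 (SE 0.08, adjusted p = 0.046 by limma), and that of the second probe set (1426947_x_at) was -0.35 (adjusted p = 0.035). Col6a1 had -0.28 and did not pass (adjusted p = 0.059), and Col6a4 had 0.06.

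The basement membrane chain Col4a2 read 12.39 and 12.38 with vehicle, 12.39 and 12.53 with E2, 12.63 and 12.71 with acolbifene, and 12.30 and 12.35 with E2+acolbifene. The rest read 12.51 with fulvestrant, 12.44 with E2+fulvestrant, 12.39 with raloxifene, 12.49 with E2+raloxifene, 12.51 with tamoxifen and 12.23 with E2+tamoxifen. Both acolbifene arrays were above all 12 others, the E2 arrays spread over 0.14, and fulvestrant and E2+raloxifene lay below E2 array 2. Col4a2 fell by 0.34 from acolbifene to E2+acolbifene (SE 0.09, adjusted p = 0.040 by limma). Col4a1, the chain it pairs with, had -0.26 (adjusted p = 0.086) at the chosen probe set and -0.23 at the other. The chains of other type IV networks, Col4a3, Col4a4, Col4a5 and Col4a6, did not pass in any of the 15 comparisons at their chosen probe sets. A dim probe set of Col4a4 (1440250_at) was called higher with E2+acolbifene than with acolbifene, at 0.61 (adjusted p = 0.039 by limma). Col8a1 fell there by 0.48 at probe set 1418441_at (adjusted p = 0.041), but not at the chosen one, which had -0.25 (adjusted p = 0.2).

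Col9a1, a FACIT known from cartilage, was 1 of the 2 genes that rose. It read 8.48 and 8.24 with vehicle, 8.55 and 8.36 with E2, 8.09 and 8.39 with acolbifene, and 8.79 and 8.85 with E2+acolbifene. Single arrays read 8.77 with fulvestrant, 8.81 with E2+fulvestrant, 8.95 with raloxifene, 8.69 with E2+raloxifene, 8.82 with tamoxifen and 8.99 with E2+tamoxifen. Acolbifene array 1 was the lowest, and both E2+acolbifene arrays lay above all vehicle, E2 and acolbifene arrays. All 6 arrays without a replicate also lay above the vehicle, E2 and acolbifene arrays. These 6 share a raw-file code with E2 array 1 (8.55) and not with vehicle or acolbifene, and the part of the code was not tested. Col9a1 rose by 0.58 from acolbifene to E2+acolbifene (SE 0.12, 95% interval 0.31 to 0.85, adjusted p = 0.026 by limma), and its second probe set, which was dim, gave 0.11.

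Col10a1, the network-forming collagen of growth-plate cartilage, gave 7.01 and 6.88 with vehicle, 6.76 and 6.69 with E2, 6.64 and 6.74 with acolbifene, and 6.98 and 7.05 with E2+acolbifene. The other levels were 7.15 with fulvestrant, 6.79 with E2+fulvestrant, 6.80 with raloxifene, 7.05 with E2+raloxifene, 6.82 with tamoxifen and 7.17 with E2+tamoxifen. Acolbifene array 1 lay at the dim level, and the E2+acolbifene arrays overlapped the vehicle arrays. Col10a1 rose by 0.33 from acolbifene to E2+acolbifene (SE 0.09, adjusted p = 0.047 by limma). It was also the only member called at its chosen probe set in the test of whether the effect of acolbifene differed with and without E2. Without E2 the change was -0.25 and with E2 it was 0.30, a difference of 0.55 (SE 0.13, adjusted p = 0.041 by limma), where 4.47% of all probe sets were called. That call was lost when any single array was left out, with adjusted p from 0.053 to 0.13, and with quantile normalization again (0.45, adjusted p = 0.078).

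**Figure D3:**
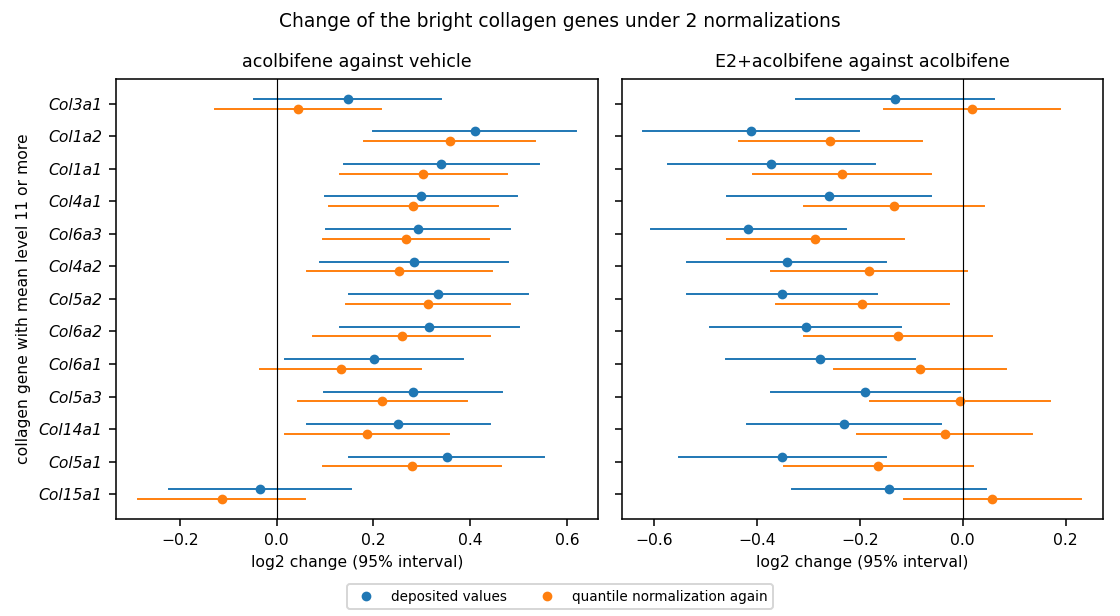
Log2 change with its 95% interval (limma) for the 13 bright collagen genes, for acolbifene against vehicle (left) and E2+acolbifene against acolbifene (right), from the deposited values (blue) and after quantile normalization again (orange). On the left 12 of 13 genes stay above 0 under both; on the right the orange points lie nearer to 0 and 2 of the 13 are above it.

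Col12a1, the FACIT that binds the surface of type I fibrils under tension, differed between its probe sets. At the chosen probe set (1427391_a_at) it read 8.23 and 8.05 with vehicle, 8.20 and 8.27 with E2, 8.48 and 8.68 with acolbifene, and 8.43 and 8.31 with E2+acolbifene, and 8.95 with fulvestrant, 8.31 with E2+fulvestrant, 8.78 with raloxifene, 8.88 with E2+raloxifene, 8.57 with tamoxifen and 8.21 with E2+tamoxifen. The acolbifene arrays lay above all vehicle, E2 and E2+acolbifene arrays. No comparison of this probe set passed.

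At probe set 1434411_at, Col12a1 read 7.24 and 7.22 with vehicle, 7.41 and 7.71 with E2, 8.39 and 8.41 with acolbifene, and 7.48 and 7.26 with E2+acolbifene. The other arrays read 8.50 with fulvestrant, 7.62 with E2+fulvestrant, 8.37 with raloxifene, 8.61 with E2+raloxifene, 7.53 with tamoxifen and 7.35 with E2+tamoxifen. The acolbifene, fulvestrant, raloxifene and E2+raloxifene arrays were at 8.37 or above and the other 9 arrays at 7.71 or below. Col12a1 at this probe set rose by 1.17 with acolbifene against vehicle (SE 0.11, adjusted p = 0.0017 by limma), the only one of the 82 collagen probe sets called there. It fell by 1.03 from acolbifene to E2+acolbifene (SE 0.11, adjusted p = 0.0029). The effect of acolbifene differed with and without E2 by -1.36 (SE 0.16, adjusted p = 0.0030), being 1.17 without E2 and -0.19 with it. These 3 calls held under every alternative that kept all 8 arrays and read this probe set on its own. The mean of all probe sets of a gene was not such an alternative. The 2 further probe sets of Col12a1 (1440101_at and 1445751_at) were dim, with changes of 0.07 and -0.05 with acolbifene. Which transcripts the probe sets read was not tested.

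**Figure D4:**
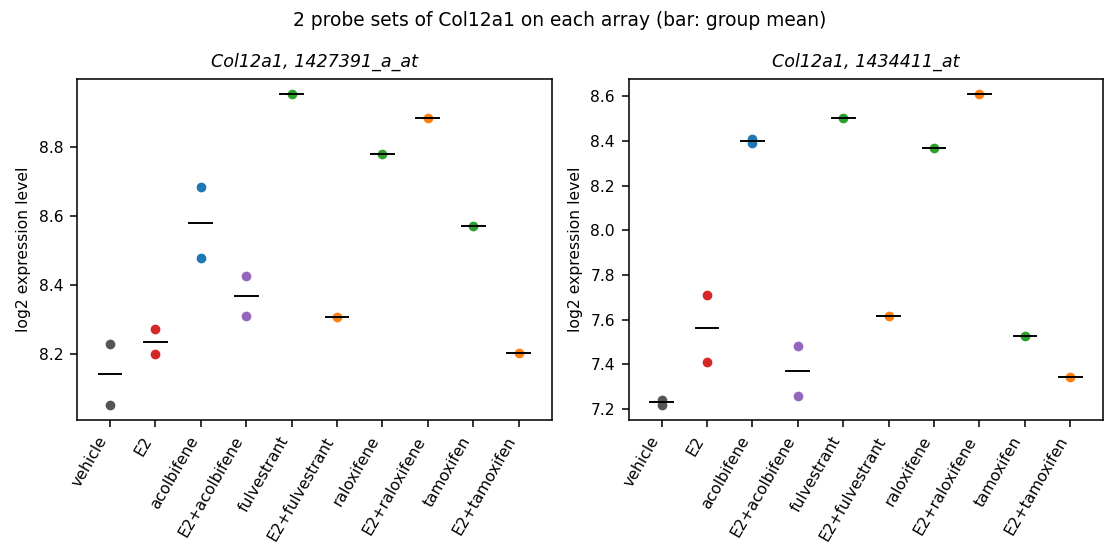
Log2 levels of Col12a1 at the chosen probe set (left) and at probe set 1434411_at (right) on each array by treatment group; points are arrays, bars are group means, and the axes differ and do not start at 0. On the right, acolbifene, fulvestrant, raloxifene and E2+raloxifene stand at 8.37 or above, apart from the other groups.

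E2+acolbifene was also set beside the groups without it. Against vehicle, 0 of 42 collagen genes passed (0.837% of all probe sets), with 6 at an unadjusted limma p under 0.05 (19.4%). The lowest adjusted p was that of Col9a1 (0.46, adjusted p = 0.0996). Against E2, 0 of 42 passed (3.66%), with 5 at an unadjusted limma p under 0.05 (24.8%). The bright genes had a median of -0.03 against E2, beside -0.08 for all equally bright probe sets. After quantile normalization again the median of the bright genes had the opposite sign (0.04). Against vehicle their median was -0.002, beside -0.12 for equally bright probe sets. Those medians were 0.10 and -0.01 after quantile normalization again. In the test of whether acolbifene acted differently in the presence of E2, Col10a1 was the only 1 of 42 called, and 16 of 42 had an unadjusted limma p under 0.05 (25.5% of all probe sets), 12 of them below 0. Other probe sets were called for Col1a2 (1423110_at, -0.47), Col5a1 (1416741_at, -0.58, and 1434479_at, -0.50) and Col12a1.

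The 6 groups with 1 array were compared in a model that held all 14 arrays and a term for the code. An array without a replicate was assumed there to vary like the replicated groups. A comparison of such an array with vehicle passes through the 2 E2 arrays, which differ in code, so fitted values can depart from the plain difference. For fulvestrant against vehicle 0 of 42 passed (0.153% of all probe sets), and 13 of 42, all higher, had an unadjusted limma p under 0.05 (5.52%). Col1a1 had a fitted change of 0.47 and a plain difference of 0.33, and Col8a1 0.82 and 0.41. The other probe set of Col1a1 (1455494_at) went the other way, with fulvestrant at 11.23, below both vehicle arrays (11.25 and 11.32). Col12a1 at probe set 1434411_at was called, with a fitted change of 1.57 (SE 0.18, adjusted p = 0.0097 by limma) and a plain difference of 1.27. In the same model the 18 skeletal muscle markers had a fitted median of 2.08 for fulvestrant against vehicle, with 17 of 18 called higher. Their plain median difference from vehicle was 0.77 on the fulvestrant array, and -0.58 and 0.53 on the 2 E2 arrays. The part of these markers in the collagen values was not tested. For raloxifene 0 of 42 passed (0.00888%) and 2 had an unadjusted limma p under 0.05 (4.80%), and for tamoxifen 0 of 42 passed (0.0111%) and 5 did (4.79%).

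With E2 added, each blocker was set against E2 alone. With the term for the code, the fitted values are differences from E2 array 1, the only E2 array of the same code. Each is therefore 1 array against 1 array. E2+fulvestrant had 0 of 42 called (0.0222%) and 1 at an unadjusted limma p under 0.05 (4.29%). E2+raloxifene had 0 of 42 called (0.0955%) and 11, all higher, at an unadjusted limma p under 0.05 (7.96%), with Col5a1 at 0.57 (adjusted p = 0.23) and Col12a1 at 0.68 (adjusted p = 0.25). Col12a1 at probe set 1434411_at was called in this comparison, at 1.20 (adjusted p = 0.017 by limma). Plain differences from the mean of the 2 E2 arrays were 0.49 for Col5a1, 0.65 for Col12a1 and 1.05 for that other probe set. E2+tamoxifen had 0 of 42 called (0.0133%) and 2 at an unadjusted limma p under 0.05 (14.4%). These were Col10a1 at 0.41 (plain difference 0.45) and Col9a1 at 0.43 (plain difference 0.53).

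Each blocker with E2 was also set against the same blocker without it, which lies within 1 raw-file code. From fulvestrant to E2+fulvestrant 1 of 42 passed (0.384%), and 14 had an unadjusted limma p under 0.05 (7.37%), 13 of them lower with E2. Col8a1 fell by 0.77 (SE 0.12, adjusted p = 0.036 by limma), from 8.81 to 8.04, with -0.44 and -0.68 at its other probe sets, neither called. Col12a1 at probe set 1434411_at fell by 0.89 (adjusted p = 0.032), and 12 of the 18 skeletal muscle markers were called lower (median -0.82). The Col8a1 call was lost without any 1 of the vehicle, acolbifene or E2+acolbifene arrays, and without the raw-file code. From raloxifene to E2+raloxifene 0 of 42 passed (0.0333%) and 6 had an unadjusted limma p under 0.05 (4.35%), 5 of them higher. From tamoxifen to E2+tamoxifen 0 of 42 passed (0.180%) and 8 had an unadjusted limma p under 0.05 (9.33%), 7 of them lower.

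Array by array, the bright collagen genes were set beside equally bright probe sets as medians of the difference from vehicle. For the 6 groups with 1 array, these values and the counts that follow are plain differences across raw-file codes. The bright genes stood at 0.29 on both acolbifene arrays, 0.31 on the fulvestrant array and 0.31 on the E2+raloxifene array. Equally bright probe sets stood at 0.10, 0.05, -0.07 and -0.02 on the same arrays. On the raloxifene and tamoxifen arrays the bright genes were at 0.11 and 0.10 and the probe sets at -0.15 and -0.03. The bright genes were at -0.04 and 0.06 on the E2 arrays, beside -0.07 and 0.01 for the probe sets. On the E2+acolbifene arrays they were at 0.03 and -0.03, beside -0.10 and -0.15. E2+fulvestrant was at -0.04, beside -0.07, and E2+tamoxifen at -0.15, beside -0.22 for the probe sets.

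**Figure D5:**
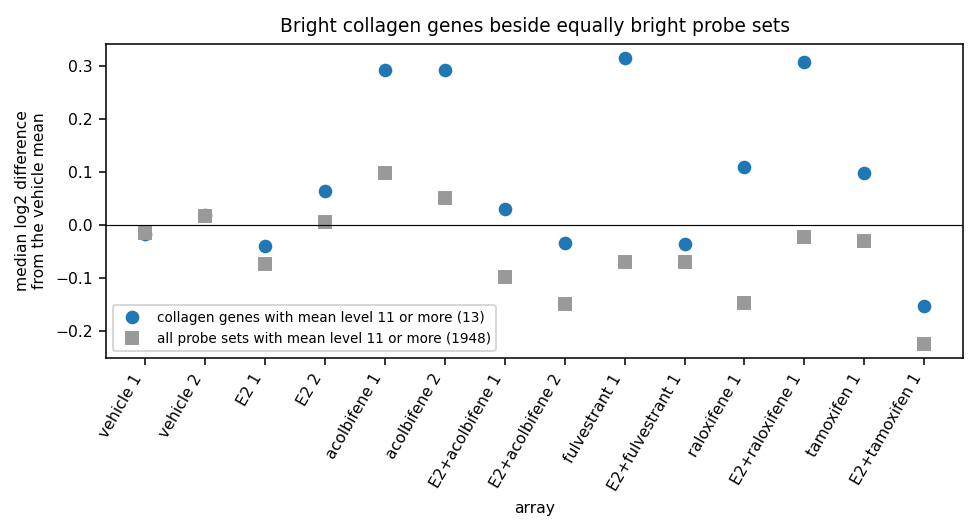
Median log2 difference from the vehicle mean on each array, for the 13 collagen genes with a mean level of 11 or more (blue circles) and for all 1948 probe sets at that level (grey squares). The circles of acolbifene 1, acolbifene 2, fulvestrant and E2+raloxifene are near 0.3, and the squares of the same arrays lie between -0.07 and 0.10.

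Counted by gene, the fulvestrant array was above both vehicle arrays for 12 of 13 bright genes (23.7% of equally bright probe sets), and so was E2+raloxifene for 12 (35.9%). The counts were 9 for tamoxifen (31.3%), 8 for raloxifene (8.83%), 4 for E2+fulvestrant (20.4%) and 0 for E2+tamoxifen (5.44%), which was below both vehicle arrays for all 13 (90.0%). The acolbifene, fulvestrant and E2+raloxifene arrays were the 4 highest of 14 for 10 of the 42 genes (0.793% of all probe sets). These were Col1a1, Col1a2, Col5a1, Col5a2, Col5a3, Col6a1, Col6a2, Col6a3, Col14a1 and Col18a1, and 9 of the 10 were bright (4.93% of equally bright probe sets). The count holds for chosen probe sets only. Other probe sets above the dim level had the same 4 arrays highest for Col1a2, Col5a1 and Col6a2, but not for Col1a1, Col5a2, Col14a1 and Col18a1. The 4 arrays were singled out after the levels were seen, so this count is a description.

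Of the other members above the dim level, Col14a1, a FACIT that spaces fibrils, lay between 11.22 (E2+fulvestrant) and 11.76 (fulvestrant). Col14a1 was called lower for E2+acolbifene against acolbifene at probe set 1428455_at (-0.35, adjusted p = 0.035 by limma), but not at the chosen one (-0.23, adjusted p = 0.10). Col18a1, the multiplexin whose end fragment is endostatin, lay between 9.91 (E2+acolbifene 2) and 10.46 (fulvestrant). Col15a1 differed from it, with vehicle array 2 the highest (11.20) and E2+tamoxifen the lowest (10.78). Col7a1, Col20a1, Col25a1 and Col9a3 each ranged over 0.42 or less on the log2 scale.

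The machinery around collagen was followed in lists of genes for the steps around translation, with the same limma threshold over all probe sets. The shares of all probe sets called were 3.74% with E2 and 0.597% with acolbifene against vehicle, and 5.67% lower from acolbifene to E2+acolbifene (17.2% of bright ones). Of 17 genes of collagen modification and folding, 2 rose with E2, namely Plod2, a lysyl hydroxylase, by 1.52, and Fkbp14, a folding factor, by 0.58, and the list median was 0.02. With acolbifene 2 rose, Plod2 by 0.97 and P4ha2, a prolyl hydroxylase subunit, by 0.47, and the median was 0.24, beside 0.01 for all probe sets. From acolbifene to E2+acolbifene 4 fell, P4ha1 by 0.54, Crtap by 0.39, Plod2 by 0.36 and P4hb by 0.33, with a list median of -0.26, beside -0.01 for all probe sets and -0.20 for bright ones. Plod2 was also higher with E2+acolbifene than with vehicle, by 0.61, and fell by 0.91 from E2 to E2+acolbifene.

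Of 11 genes of procollagen processing and cross-linking, Tgm2, a transglutaminase, rose by 0.78 with E2 and Pcolce2, an enhancer of propeptide cleavage, fell by 0.44. Lox, the lysyl oxidase that starts cross-linking, rose by 0.53 with acolbifene and fell by 0.60 from acolbifene to E2+acolbifene. Bmp1, Pcolce and Loxl1 fell with it in the latter comparison, by 0.34, 0.34 and 0.39, and the list median was -0.12. From fulvestrant to E2+fulvestrant, Lox fell by 0.74 and Tgm2 rose by 0.92.

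Among 11 matrix proteins that bind fibrils, Tnc, tenascin C, rose by 0.98 with acolbifene and fell by 0.94 from acolbifene to E2+acolbifene. It was called with fulvestrant against vehicle (fitted change 1.49), with E2+raloxifene against E2 (fitted change 0.93, from E2 array 1) and from fulvestrant to E2+fulvestrant (-0.96). Thbs2, thrombospondin 2, rose by 1.00 with E2. Bgn and Fn1, biglycan and fibronectin, fell from acolbifene to E2+acolbifene, by 0.46 and 0.32, with a list median of -0.24. Of 9 collagen receptors, Itgb1 and Ddr2 fell in that comparison, by 0.39 and 0.43, and none passed with E2 or acolbifene against vehicle. Of 7 genes of the TGF-beta input to collagen transcription, Ccn2, connective tissue growth factor, rose by 1.20 with E2 and 1.02 with acolbifene, and Tgfb1 and Tgfbr2 fell from acolbifene to E2+acolbifene, by 0.38 and 0.42.

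Markers of other cell types moved on the same arrays, and their part in the collagen results was not tested. The median difference from vehicle of the 12 fibroblast markers was 0.17 and 0.15 on the acolbifene arrays, 0.13 with E2+raloxifene, 0.06 with fulvestrant and between -0.21 and -0.05 on the other 8 treated arrays. That of the 12 macrophage markers was 0.26 and 0.24 with acolbifene, 0.14 with E2+raloxifene, 0.12 with fulvestrant and between -0.32 and -0.05 on the others. Skeletal muscle markers, 18 in all, had plain medians from -1.33 (E2+raloxifene) to 0.77 (fulvestrant), and stood at -0.03 and -0.06 with acolbifene and at 0.75 and 0.69 with E2+acolbifene. The 11 measured keratinocyte markers ranged from -0.28 (acolbifene 1) to 0.91 (E2+fulvestrant). From acolbifene to E2+acolbifene, limma called 4 of 12 fibroblast markers (median -0.28) and 9 of 12 macrophage markers (median -0.44) lower. In the same comparison 5 of 18 skeletal muscle markers (median 0.80) and 7 of 11 keratinocyte markers (median 0.49) were called higher. The shares of all probe sets were 5.67% lower and 3.52% higher. Over the treated arrays, medians ran from -0.21 to 0.15 for adipocytes, -0.27 to 0.12 for endothelium, -0.09 to 0.15 for pericytes and smooth muscle, 0.04 to 0.28 for mammary epithelium, -0.08 to 0.10 for Schwann cells and -0.10 to 0.19 for cartilage and tendon.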

How the data were processed

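For the 14 Affymetrix arrays the authors deposited log2 values. Per the submitters' processing notes these come from RMA, whose version is not given in the sources used here. RMA compresses weak signals. The design text names an array (U74Av2) with fewer probe sets than the table holds, so genes were named through the platform annotation that fits the table. Of 45101 probe sets, 64 controls were left out. Total RNA of 20 ug was labelled per array, per the labels. No E2 dose is given here, since the unit in the labels was doubted.

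The test throughout was limma (version 3.58.1, R 4.3.3; lmFit, eBayes, Benjamini-Hochberg over 45037 probe sets, adjusted p under 0.05), checked on simulated data. The 8 arrays of the replicated groups gave 6 comparisons, and the 9 others came from a model of all 14 arrays that included the code. The number of arrays limits the precision. Values on every array were given for each collagen gene called among the replicated groups and for the 3 largest rises and falls above the dim level with E2 and with acolbifene; Col3a1 and probe set 1434411_at of Col12a1 were added after their values were seen. The members, the lists of 5 collagen steps and the 10 marker lists were chosen with earlier results of these data known. Alternatives were a replicate block, the raw-file code, an intensity trend, removal of dim probe sets, quantile normalization again, other probe set choices and leaving out each array. Figures were drawn with matplotlib 3.10.9.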

Additional observations from a re-analysis of the deposited data

Results flagged for a closer look

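For 5 collagen probe sets the effect of acolbifene without E2 differed from its effect with E2 by the limma test of that difference. Col12a1 at probe set 1434411_at had a difference of -1.36 (1.17 without E2 and -0.19 with it). Col10a1 at probe set 1422253_at had 0.55 (-0.25 and 0.30). Col1a2 at probe set 1423110_at had -0.47 (0.41 and -0.06). Col5a1 had -0.58 at probe set 1416741_at (0.41 and -0.17) and -0.50 at probe set 1434479_at (0.38 and -0.11). The chosen probe sets of Col1a2, Col5a1 and Col12a1 had differences of -0.42, -0.33 and -0.31 and did not pass, with adjusted p of 0.092, 0.15 and 0.21.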

How the results depend on the processing

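Counts of collagen genes called depended on the moderation of the variance and on the probe sets used. In parentheses are the shares of all probe sets called by the same fit. A count without a share was not set against all probe sets and is no result about collagen. With an intensity trend the counts of 42 were 2 for E2 against vehicle (6.04%), 11 for acolbifene against vehicle (3.19%, and 15.8% of bright probe sets), 1 for E2+acolbifene against E2 (6.73%) and against vehicle (3.85%), 14 for the difference between acolbifene effects (9.27%, and 24.7% of bright ones), 7 for fulvestrant against vehicle (0.515%), 8 for E2+raloxifene against E2 (0.846%), 8 for E2+fulvestrant against fulvestrant (1.61%) and 4 for E2+tamoxifen against tamoxifen (1.64%). Without dim probe sets they were 2 for E2 against vehicle (8.04%), 2 for acolbifene against vehicle (2.61%) and 4 for the difference (2975 probe sets out of 27022). The mean of all probe sets of a gene gave 3 for acolbifene against vehicle (2.13% of all genes), 1 for E2+acolbifene against vehicle (2.59%), 17 for E2+acolbifene against acolbifene (14.5%, and 36.1% of bright genes) and 6 for the difference (6.87%). Counting any probe set gave 1 for acolbifene against vehicle (0.597%) and 4 for the difference (4.47%). For E2+acolbifene against acolbifene, quantile normalization again gave 1 (2.53%). Without the raw-file code, fulvestrant against vehicle gave 1 and E2+fulvestrant against fulvestrant 0, and with it the difference gave 0. Whether array numbers pair the samples could not be decided from 6 correlations of deviations between groups (-0.12 to 0.12). A replicate block gave 3 for E2+acolbifene against acolbifene (5.11%) and 0 for the difference. Leaving out 1 of the 8 arrays, which leaves 1 array in a group, gave fewer calls for E2+acolbifene against acolbifene. It moved the count in at least 1 fit for E2 against vehicle, E2+acolbifene against E2, the difference and E2+fulvestrant against fulvestrant. The only change of sign among named genes was Col4a4 with acolbifene (0.059 without acolbifene array 1; lowest -0.32 without acolbifene array 2). The cause of these shifts was not tested. Comparisons of the single arrays with vehicle could not be fitted without either E2 array, nor those with E2 without E2 array 1.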
